A study of Mus musculus with 4 samples.

Results

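Genes that cells use to copy and divide their chromosomes were read in macrophages of the injured sciatic nerve of young and aged mice. The set holds 44 genes of mitosis and of nucleotide supply in S phase, chosen by name, of the 24028 genes of the table, and all 44 had a row. The libraries came from female mice heterozygous for both reporters, Cx3cr1-GFP+/- :Ccr2-RFP+/-, whose nerves had been injured 3 days earlier. Young mice were 3 months and aged mice 15 months old. Both reporters are knock-in alleles, so that every animal of both ages keeps a single working copy of Cx3cr1 and of Ccr2. The cells are labelled macrophages positive for both reporters, and the design text gives 7 to 8 mice per time point, with samples pooled into 2 libraries per age. Uninjured nerve was not analysed here. The comparison asks whether transcripts differ between the ages. How the mice were divided between the pools is not stated, so a p-value measures the spread between these pools, which may be technical. The RNA was copied from oligo-dT primers and then multiplied by MDA, multiple displacement amplification, which can copy scarce transcripts unevenly.

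A dividing cell first doubles its DNA in S phase, for which ribonucleotide reductase, thymidylate synthase and thymidine kinase supply deoxynucleotides. It then enters mitosis under cyclin-dependent kinase and its B-type cyclins, attaches chromosomes to the spindle through kinetochores, waits on a checkpoint until all are attached, and is cut in 2 by cytokinesis. Most of these genes are switched on together late in the cycle, and resting cells keep them low. After nerve injury most macrophages derive from monocytes of the blood, and macrophages of injured tissue can also divide in place.

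Values are FPKM, read fragments scaled by the length of the gene and by the read total of the library, and are given for each library or as mean ± SD (n = 2 libraries). Pairs of values are written young against aged, with replicate 1 first. The read totals used were 11489336 and 10765234 for young and 8613360 and 9986706 for aged libraries, with 19897 to 21361 genes above 0. As a check of the labels, Lyz2, lysozyme, was 7491 to 12267 FPKM, Csf1r, the receptor for the macrophage growth factor CSF1, was 178 to 278 FPKM, and Adgre1, which encodes F4/80, was 103 to 138 FPKM. Ccr2 was 276 to 399.9 FPKM and Cx3cr1 16.1 to 19.8 FPKM. Of 11 macrophage markers 4 had each aged value under each young value and 1, Csf1r, the reverse. Aif1, at 61.8 and 76.9 against 22.9 and 42.8 FPKM (-1.11), and Itgam, at 107 and 106 against 68.0 and 60.5 FPKM (-0.72), were lower in aged libraries like most of the proliferation genes (limma adjusted p 0.740 each), and their part in those values was not tested. Beside these, the 44 proliferation genes were scarce. Their levels added up to 198 and 204 FPKM at 3 months and 148 and 172 FPKM at 15 months, which is 0.0527% and 0.0579% against 0.0402% and 0.0497% of each library's summed FPKM. Each aged sum was under each young sum, by 1.26-fold in the mean (201 ± 4.06 against 159.8 ± 16.9 FPKM). The exact two-sided permutation test gave p = 0.333, the smallest that 2 against 2 libraries allow. In such sorted pools, fewer dividing cells, less RNA per dividing cell and the spread between pools cannot be told apart.

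**Figure D1:**
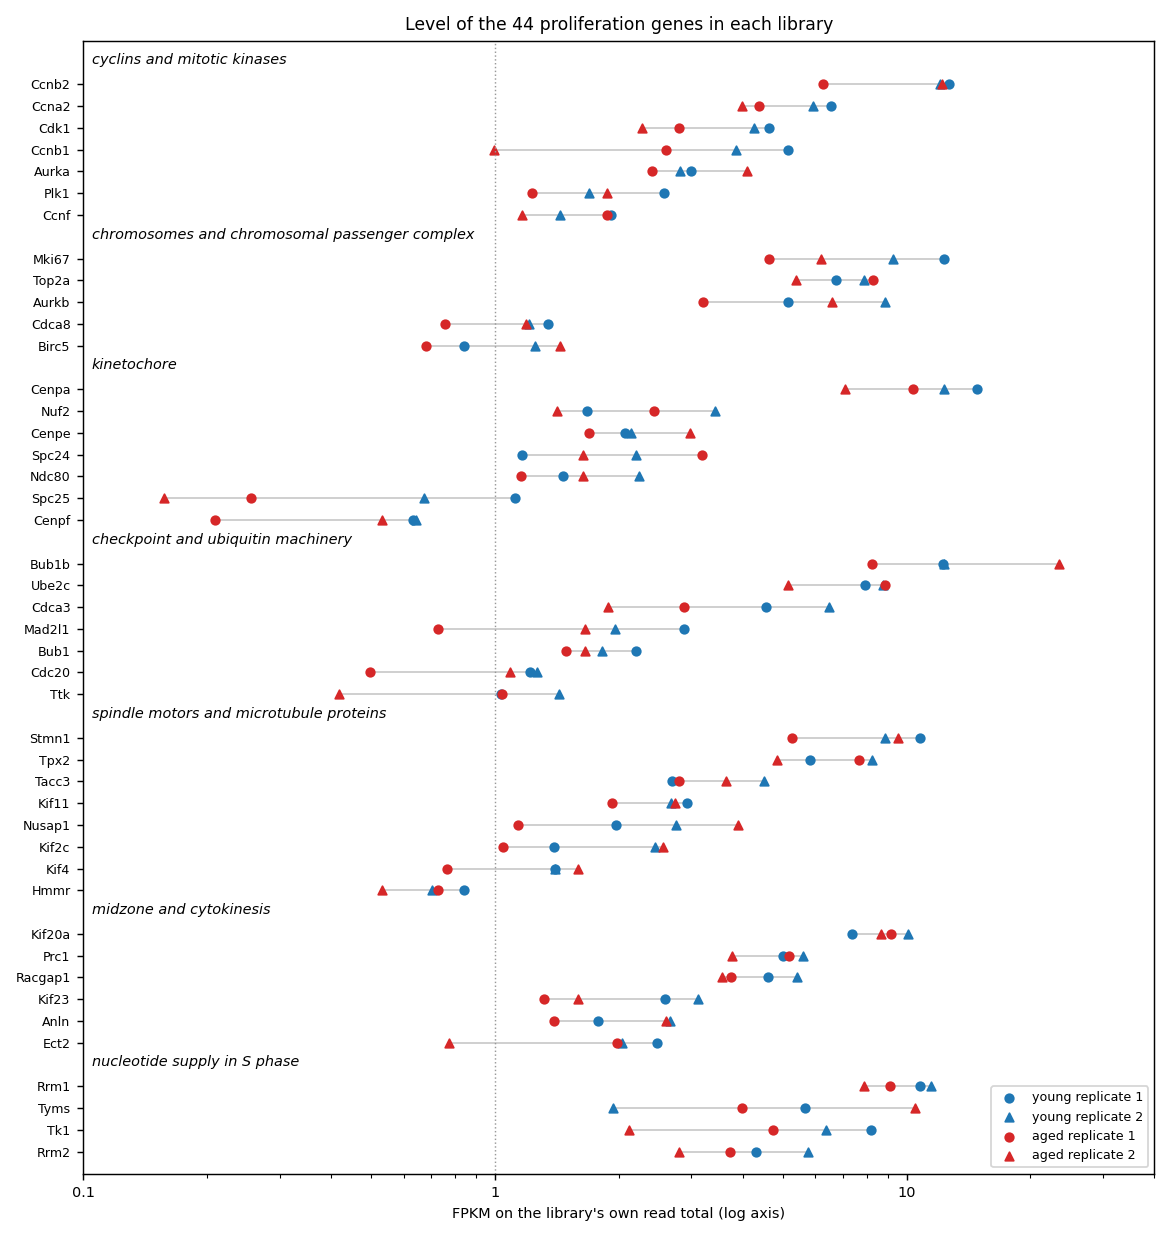
Level of each of the 44 genes in each of the 4 libraries, in FPKM on a log axis, grouped by role, with circles for replicate 1 and triangles for replicate 2 of the young (blue) and aged (red) libraries and a dotted line at 1 FPKM. Levels run from 0.157 FPKM (Spc25, aged replicate 2) to 23.4 FPKM (Bub1b, aged replicate 2).

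Most of the 44 genes had lower values in aged macrophages, but none passed the test. limma called 0 of the 40 members tested, and 0 of all 11656 genes (0.0% called), at an adjusted p below 0.05, with 0.740 as the lowest adjusted p of a member. At an unadjusted p below 0.05, limma had 4 members lower in aged cells and 0 higher, beside 4.87% and 1.76% of all genes tested. The 4 became 1 with median-of-ratios scaling, beside 596 of 11613 genes in either direction, and 2 with quantile scaling, beside 780 of 11656. With the values as deposited they became 7, beside 1012 of 11838. Of the 40, 34 (85.0%) were lower in mean log2(FPKM + 1) in aged cells, beside 59.5% of all genes tested. With median-of-ratios scaling, which moved the median of all genes by 0.10, these shares were 80% and 49.2%. In 16 of them (40%) each aged value was under each young value, beside 26.2% of all genes, and in 0 each was above, beside 11.8%. The 16 became 11 (27.5%) with median-of-ratios or quantile scaling, beside 18.3% and 23.2% of all genes. The median difference, 15 minus 3 months in units of log2(FPKM + 1), was -0.25 (quartiles -0.49 and -0.10), and that of all genes tested was -0.09. This scale understates the change of low genes. Without the filter on low values, 38 of the 44 were lower (56.6% of all genes above 0) and 18 had each aged value under each young value (20.6%).

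The excess over other genes depended on aged replicate 1. Without that library the median of the members was -0.15 beside -0.13 for all genes, and 70% of members were lower beside 59.8%. Without aged replicate 2 the member median was -0.38 beside -0.09. It was -0.36 beside -0.18 without young replicate 1, and -0.24 beside 0.0 without young replicate 2. Aged replicate 1 held the lowest value of 20 of the 40 members (50%), beside 26.0% of all genes tested, and aged replicate 2 that of 16 (40%), beside 35.4%. Young replicate 1 held the highest value of 15 (37.5%), beside 19.8% of all genes. Young replicate 2 held that of 14 (35.0%), close to the 36.5% of all genes. The difference between the ages was larger than the gap within both ages in 13 of the 40 members, or 32.5%, beside 25.7% of all genes tested.

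**Figure D2:**
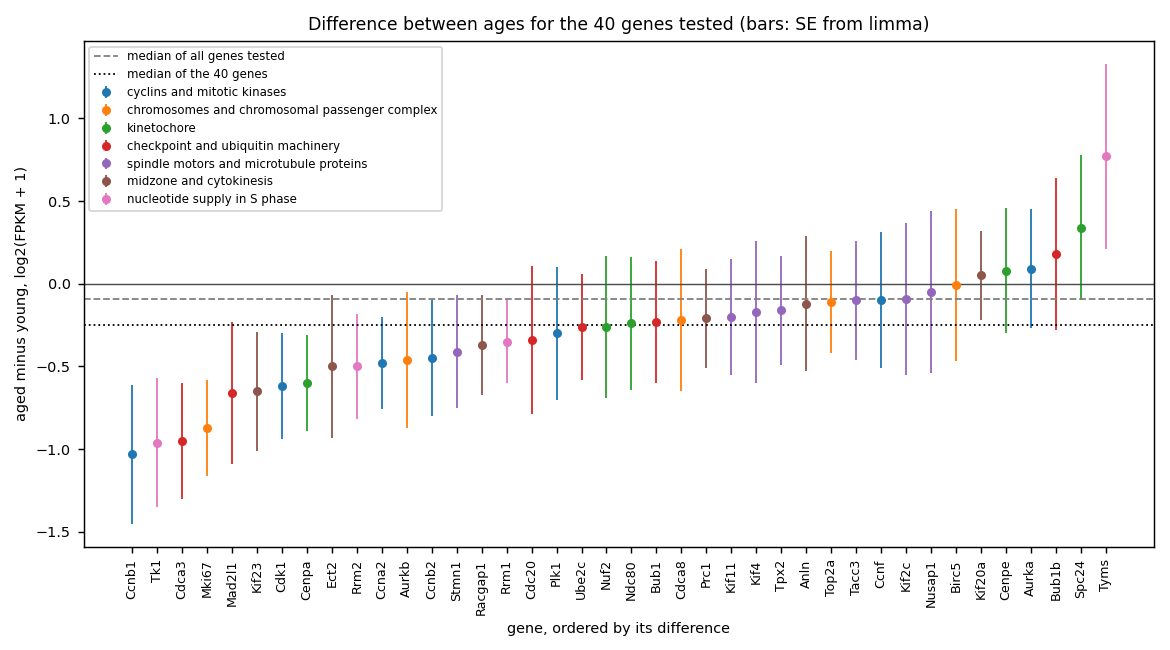
Difference between the ages for the 40 genes with a mean of at least 1 FPKM, aged minus young on the log2(FPKM + 1) scale, with the standard error from limma as bars and colours for the role. From Ccnb1 (-1.03) to Tyms (0.77), 34 points lie below 0, and the median of the 40 (-0.25, dotted) lies below that of all genes tested (-0.09, dashed).

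The start regions of these genes share short letters that late cell cycle promoters are known for. The cell cycle genes homology region (CHR) is read in mammals by the DREAM and MuvB complexes, which repress these genes in resting cells and activate them before mitosis, and CCAAT boxes are bound by the factor NF-Y. In RefSeq (GRCm38.p6) 38 of the 44 members had a window of 250 bases before to 50 bases after a start, 40 windows in all, since Prc1 and Ect2 have 2 overlapping windows each. The CHR letters TTTGAA or TTTAAA, on either strand, stood in 33 of the 40 windows (82.5%), against 27.6% of all 32851 windows. CCAAT, on either strand, stood in 30 (75%), against 37.4%, and both together in 28 (70%), against 10.7%. TTTAAA reads the same on both strands. CHR and CCAAT letters can share an end base, as in Cdca8, where TTTGAA spans bases 14 to 19 and CCAAT letters bases 19 to 23. The windows of 6 genes are printed because these genes carry the largest differences between the ages in both directions, with Cdk1 as the partner of Ccnb1. They are Ccnb1 (chr13:100786437-100786736, minus strand), Cdk1 (chr10:69352863-69353162, minus), Mki67 (chr7:135716330-135716629, minus), Cdca3 (chr6:124829926-124830225, plus), Tk1 (chr11:117825965-117826264, minus) and Tyms (chr5:30073576-30073875, minus), each read 5′ to 3′ along the gene with CHR and CCAAT letters in capitals.
Ccnb1: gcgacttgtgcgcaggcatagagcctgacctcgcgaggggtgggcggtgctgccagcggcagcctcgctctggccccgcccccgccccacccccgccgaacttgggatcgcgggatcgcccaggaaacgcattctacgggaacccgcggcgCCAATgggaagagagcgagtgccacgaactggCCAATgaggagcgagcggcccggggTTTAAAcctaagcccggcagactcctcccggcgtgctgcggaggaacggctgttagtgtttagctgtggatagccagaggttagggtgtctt
Cdk1: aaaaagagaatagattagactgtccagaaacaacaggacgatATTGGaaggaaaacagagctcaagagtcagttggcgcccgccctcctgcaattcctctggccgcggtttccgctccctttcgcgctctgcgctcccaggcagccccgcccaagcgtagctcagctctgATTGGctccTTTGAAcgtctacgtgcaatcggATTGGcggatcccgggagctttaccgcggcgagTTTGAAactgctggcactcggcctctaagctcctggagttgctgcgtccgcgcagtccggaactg
Mki67: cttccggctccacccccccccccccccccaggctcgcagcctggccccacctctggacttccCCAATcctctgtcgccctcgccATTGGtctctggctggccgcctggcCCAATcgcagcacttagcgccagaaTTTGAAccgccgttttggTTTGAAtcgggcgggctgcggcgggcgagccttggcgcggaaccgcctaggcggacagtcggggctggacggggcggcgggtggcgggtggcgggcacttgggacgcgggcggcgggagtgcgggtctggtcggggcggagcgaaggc
Cdca3: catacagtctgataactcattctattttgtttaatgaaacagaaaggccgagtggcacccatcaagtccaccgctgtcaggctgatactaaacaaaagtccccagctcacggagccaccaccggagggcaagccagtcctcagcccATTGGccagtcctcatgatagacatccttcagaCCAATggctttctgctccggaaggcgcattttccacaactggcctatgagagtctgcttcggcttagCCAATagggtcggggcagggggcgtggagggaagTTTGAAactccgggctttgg
Tk1: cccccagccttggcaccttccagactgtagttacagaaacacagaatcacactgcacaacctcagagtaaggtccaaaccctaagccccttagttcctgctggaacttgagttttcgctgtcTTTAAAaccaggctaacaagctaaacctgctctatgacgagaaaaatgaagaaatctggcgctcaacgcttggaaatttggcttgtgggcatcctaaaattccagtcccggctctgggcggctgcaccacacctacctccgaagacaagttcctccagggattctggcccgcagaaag
Tyms: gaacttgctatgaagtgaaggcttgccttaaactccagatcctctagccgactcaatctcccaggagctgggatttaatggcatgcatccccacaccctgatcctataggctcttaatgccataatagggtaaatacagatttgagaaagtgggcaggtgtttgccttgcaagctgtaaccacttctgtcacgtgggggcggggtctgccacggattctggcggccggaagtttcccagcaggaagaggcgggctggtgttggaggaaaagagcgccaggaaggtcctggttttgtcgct

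Ccnb1 has 2 CCAAT matches from 99 and 67 bases before the start and TTTAAA from 42 bases before it. Cdk1 and Mki67 each hold TTTGAA at 2 places and CCAAT letters at 3. Cdca3 holds TTTGAA 31 bases into the transcribed part and 3 CCAAT matches. Tk1 holds TTTAAA and no CCAAT, and Tyms holds neither within its window. In all, 5 members with a window held neither letters. Over all 31 members with CHR letters, of which 27 were tested, the median difference between the ages was -0.27. It was -0.23 over the 7 without (Nuf2, Bub1, Mad2l1, Nusap1, Tacc3, Rrm1 and Tyms), with ranges of -1.03 to 0.18 and -0.66 to 0.77 that overlap. A match is a run of letters, and no binding was measured.

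**Figure D3:**
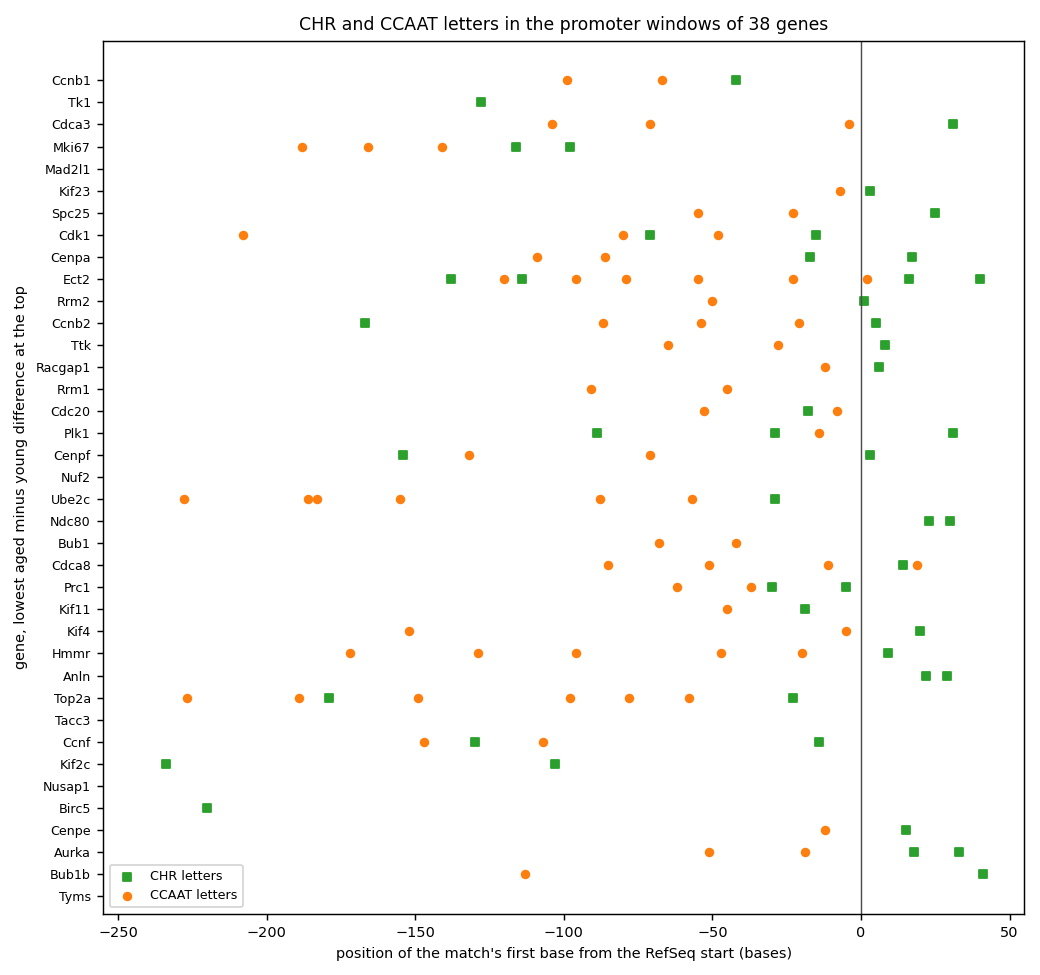
Positions of CHR (green squares) and CCAAT letters (orange circles) in the promoter windows of 38 members, as the distance in bases of the first letter from the RefSeq start, with genes ordered by their difference between the ages. CHR letters stand in 33 of the 40 windows, before and after the start, and appear in rows at the top and the bottom alike; Prc1 and Ect2 have 2 overlapping windows, which show the same letters at 2 distances.

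Cyclins and mitotic kinases had a median difference of -0.45 over 7 members. Of these, 6 (85.7%) were lower in aged cells, beside 59.5% of all genes tested. In 3 (42.9%) each aged value was under each young value, called separate ages here, beside 26.2% of all genes. Ccnb1 encodes cyclin B1, the partner that carries the mitotic kinase into mitosis (chromosome 13, 100778650 to 100786570, GRCm38). It was 5.15 and 3.85 FPKM at 3 months and 2.61 and 0.994 FPKM at 15 months, a log2 difference of -1.03 (SE 0.42, limma adjusted p 0.740). The ages did not overlap, and the aged libraries lay 2.62-fold apart. At least 137 and 96 reads stand behind the young and 52 and 23 behind the aged values, and 23.4% of the 50-base stretches of Ccnb1 also occur in Ccnb1-ps, so its values are uncertain in part.

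Cdk1, the mitotic kinase itself (chromosome 10, 69335146 to 69352938), was 4.63 and 4.25 FPKM at 3 months and 2.80 and 2.28 FPKM at 15 months. Its ages were apart by more than the gap within either age, at a log2 difference of -0.62 (SE 0.32, limma adjusted p 0.740). Ccna2, cyclin A2, which works in S phase and early mitosis, was 6.56 and 5.92 against 4.38 and 3.99 FPKM. Its aged pair lay close together and below the young pair, at -0.48 (SE 0.28, limma adjusted p 0.761). Of the exon bases of Ccna2, 12.5% overlap those of Exosc9 on the other strand, which was 4.54 and 4.41 against 3.47 and 2.25 FPKM, and reads of such partners could not be told apart.

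Ccnb2, cyclin B2, was the most abundant cyclin among the members, at 12.7 and 12.1 FPKM at 3 months and 6.25 and 12.2 FPKM at 15 months. Only aged replicate 1 was low, and aged replicate 2 lay among the young values. Plk1, a kinase of mitotic entry and the spindle, was 2.58 and 1.69 against 1.23 and 1.87 FPKM, and Ccnf, an F-box protein that marks targets for destruction, was 1.92 and 1.44 against 1.87 and 1.16 FPKM. Aurka, the kinase of spindle poles, was 3.00 and 2.82 against 2.41 and 4.11 FPKM, with the young values between the aged ones. The ages overlapped in all 3.

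Among genes of the chromosomes and the chromosomal passenger complex, all 5 had a lower mean log2(FPKM + 1) in aged cells, with a median of -0.22. Birc5, at -0.01, was however higher in mean FPKM (1.06 against 1.05 in young) and at 0.06 with median-of-ratios scaling. Separate ages were seen in 2 (40%), beside 26.2% of all genes tested, of which 59.5% were lower. Mki67, the marker that pathologists stain to count dividing cells and whose protein coats mitotic chromosomes (chromosome 7, 135689784 to 135716361), was 12.3 and 9.25 FPKM at 3 months and 4.64 and 6.19 FPKM at 15 months. This was 1.99-fold lower in the aged mean, at a log2 difference of -0.87 (SE 0.29, limma adjusted p 0.740). At least 1424 and 1003 against 403 and 623 reads stand behind it. Top2a, the topoisomerase that untangles sister chromosomes and another common marker of division, did not share that pattern, at 6.75 and 7.89 against 8.28 and 5.38 FPKM (-0.11, SE 0.31). Its aged values lay on both sides of the young ones.

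The passenger complex moves from chromosomes to the midzone and corrects faulty attachments. Its kinase Aurkb was 5.16 and 8.88 FPKM at 3 months and 3.20 and 6.60 FPKM at 15 months, and Birc5, survivin, was 0.841 and 1.25 against 0.680 and 1.44 FPKM. Cdca8, borealin, was 1.35 and 1.21 against 0.755 and 1.19 FPKM. The gaps within each age were wider than the difference in Aurkb and Birc5, and in Cdca8 the upper aged value lay just under the lower young one.

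Kinetochore genes had no common pattern, with a median of -0.24 and 3 of the 5 tested (60%) lower in aged cells, beside 59.5% of all genes. Cenpa, the histone variant that marks centromeres (chromosome 5, 30666777 to 30674830), was the most abundant, at 14.8 and 12.3 FPKM at 3 months and 10.4 and 7.09 FPKM at 15 months. Its ages did not overlap, at a log2 difference of -0.60 (SE 0.29, limma adjusted p 0.740). Spc24 and Spc25 encode partners within the same microtubule-binding complex and differed in direction. Spc24 was 1.16 and 2.20 against 3.18 and 1.63 FPKM, and Spc25, under the minimum for testing, was 1.12 and 0.671 against 0.255 and 0.157 FPKM. The Spc25 values rest on at least 41, 23, 7 and 5 reads.

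The other arms of that complex overlapped between the ages, with Ndc80 at 1.46 and 2.24 against 1.16 and 1.64 FPKM and Nuf2 at 1.67 and 3.43 against 2.44 and 1.41 FPKM. Cenpe, a kinesin that moves chromosomes to the spindle equator, was 2.07 and 2.14 against 1.69 and 2.99 FPKM. Cenpf, a large protein of the outer kinetochore, was below the minimum, at 0.634 and 0.643 against 0.209 and 0.531 FPKM. Both aged values of Cenpf were lower, and those of Cenpe lay on either side of the young pair.

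Of the checkpoint and ubiquitin genes, 5 of the 6 tested (83.3%) were lower in aged cells, beside 59.5% of all genes, with a median of -0.30. Separate ages were seen in 4 (66.7%), beside 26.2% of all genes. Cdca3, the trigger of mitotic entry that helps to destroy the inhibitory kinase Wee1 (chromosome 6, 124829547 to 124833701), was 4.56 and 6.49 FPKM at 3 months and 2.89 and 1.88 FPKM at 15 months. The aged mean was 2.32-fold lower, at a log2 difference of -0.95 (SE 0.35, limma adjusted p 0.740), and the gaps within the ages, 0.43 in each, were smaller than the difference. Mad2l1, which holds the anaphase activator Cdc20 in check, was 2.88 and 1.96 against 0.728 and 1.66 FPKM. Cdc20 itself was 1.22 and 1.26 against 0.497 and 1.09 FPKM. Both were lowest in aged replicate 1, at 11 reads each, as lower limits.

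Bub1b, the checkpoint protein BubR1, had the highest mean of all 44 over the 4 libraries, carried by aged replicate 2, since Cenpa was higher in the other 3. Its aged pair also had the widest gap within an age on the log2(FPKM + 1) scale, 1.41. It was 12.3 FPKM in each young library, and 8.23 and 23.4 FPKM in the aged libraries, 2.85-fold apart, so that the aged values lay on either side of the young ones. Its relative Bub1, a kinase, was 2.21 and 1.82 against 1.48 and 1.65 FPKM. Ttk, the kinase at the head of the checkpoint and below the minimum for testing, was 1.03 and 1.43 against 1.04 and 0.418 FPKM. Ube2c, the enzyme that charges the anaphase-promoting complex with ubiquitin, was 7.95 and 8.78 against 8.85 and 5.16 FPKM. Of its exon bases, 22.8% overlap those of Tnnc2, which was 3.52 and 4.16 against 0.839 and 0.0 FPKM, lower in both aged libraries.

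Spindle motors and microtubule proteins had the median nearest to 0 of the 7 roles, -0.16. Separate ages were seen in 0 of them, beside 26.2% of all genes tested, of which 59.5% were lower in aged cells. The mean log2(FPKM + 1) of all 7 tested was lower in aged cells, except that Nusap1, at -0.05, was higher in mean FPKM (2.51 against 2.37 in young) and at 0.04 with median-of-ratios scaling. Stmn1, stathmin, which takes microtubules apart, was the most abundant, at 10.8 and 8.85 FPKM at 3 months and 5.26 and 9.54 FPKM at 15 months, and 18.9% of its 50-base stretches occur elsewhere too. Tpx2, which activates Aurka on the spindle, was 5.81 and 8.24 against 7.68 and 4.85 FPKM. Nusap1, which bundles microtubules at chromosomes, was 1.97 and 2.76 against 1.14 and 3.89 FPKM. The aged libraries lay 3.42-fold apart in Nusap1, the widest ratio of an aged pair among the 44 members.

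Of the motors, Kif11, which pushes spindle poles apart, was 2.93 and 2.68 against 1.93 and 2.74 FPKM, and Kif2c, which takes microtubules apart at kinetochores, was 1.39 and 2.45 against 1.04 and 2.56 FPKM. Kif4, a chromosome-bound kinesin, was 1.40 FPKM in both young libraries and 0.764 and 1.59 FPKM in the aged ones. In all 3 only aged replicate 1 lay below the young libraries. Pdzd11, whose exons overlap 15.1% of those of Kif4, was more abundant, at 19.7 and 20.9 against 11.9 and 9.85 FPKM. Tacc3, of the spindle fibres, was 2.70 and 4.49 against 2.81 and 3.63 FPKM, and Hmmr, under the minimum for testing, 0.842 and 0.705 against 0.727 and 0.532 FPKM.

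Of the midzone and cytokinesis genes, 5 of 6 (83.3%) were lower in aged cells, beside 59.5% of all genes tested, with a median of -0.29. Separate ages were seen in 3 (50%), beside 26.2% of all genes. Kif23 and Racgap1 encode the partners that form centralspindlin, the complex that marks the site of division, and both had separate ages. Kif23 was 2.59 and 3.12 FPKM at 3 months and 1.31 and 1.59 FPKM at 15 months (-0.65, SE 0.36, limma adjusted p 0.761), and Racgap1 was 4.60 and 5.42 against 3.75 and 3.56 FPKM (-0.37, SE 0.30, limma adjusted p 0.797). Ect2, the activator of the contractile ring that binds Racgap1, was 2.48 and 2.04 against 1.98 and 0.772 FPKM. All 3 had both aged values below both young ones, narrowly so in Ect2.

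Prc1, which crosslinks midzone microtubules, was 5.0 and 5.59 against 5.19 and 3.76 FPKM, and Anln, anillin, a scaffold of the ring, was 1.78 and 2.66 against 1.39 and 2.60 FPKM. Kif20a, a midzone kinesin, was 7.36 and 10.1 against 9.19 and 8.67 FPKM, a log2 difference of 0.05 (-0.08 with the values as deposited). Its values are uncertain, since 29.3% of its exon bases overlap those of Cdc23 on the other strand, which was 4.35 and 6.12 against 6.30 and 4.05 FPKM. The ages overlapped in these genes.

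The genes of nucleotide supply split, with 3 of 4 (75%) lower and separate and the fourth higher in the aged mean. Of all genes tested 59.5% were lower and 26.2% had each aged value under each young value. Tk1, thymidine kinase, which salvages thymidine for DNA (chromosome 11, 117815526 to 117826092), was 8.20 and 6.38 FPKM at 3 months and 4.75 and 2.12 FPKM at 15 months. The aged mean was 2.12-fold lower, at a log2 difference of -0.96 (SE 0.39, limma adjusted p 0.740). Rrm1 and Rrm2, the subunits of ribonucleotide reductase, had both aged values below the young ones. Rrm1 was 10.8 and 11.5 against 9.12 and 7.87 FPKM, and Rrm2, the subunit made in S phase, was 4.31 and 5.75 against 3.73 and 2.80 FPKM. The differences were -0.35 (SE 0.25) and -0.50 (SE 0.32), with limma adjusted p of 0.775 and 0.763.

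Tyms, thymidylate synthase, which makes the same nucleotide as Tk1 by the new route, varied most within the young age. It was 5.67 and 1.94 FPKM at 3 months and 3.99 and 10.5 FPKM at 15 months, so that the ages overlapped (0.77, SE 0.56, limma adjusted p 0.775). The gap on the log2 scale was 1.18 within the young and 1.20 within the aged pair, wider than the difference.

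**Figure D4:**
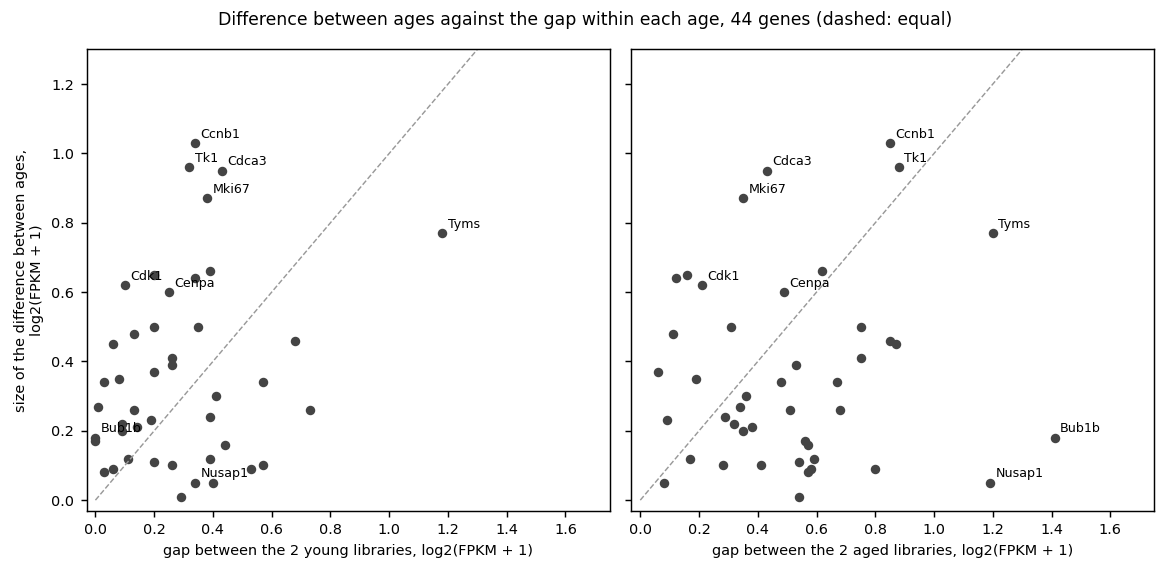
Size of the difference between the ages of each of the 44 genes (vertical, log2(FPKM + 1)) against the gap between the 2 young (left) and the 2 aged libraries (right), with the line of equality dashed. Ccnb1, Tk1, Cdca3 and Mki67 lie above both lines, and Tyms, Bub1b and Nusap1 lie far to the right of the line for the aged pair.

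In most of the members tested, the aged pools differed from each other more than the young pools did. The gap was wider in the aged pair in 29 of these 40 (72.5%), beside 55.4% of all genes tested. Their median gap was 0.52 in the aged and 0.26 in the young pair, beside 0.35 and 0.31 over all genes tested. The aged pools did not keep a single order. In Bub1b, Nusap1, Tyms and Kif2c aged replicate 2 was the higher, and in Ccnb1, Tk1, Ect2 and Ttk aged replicate 1 was. By role, the median deviation from each gene's mean was -0.36 in aged replicate 1 and 0.17 in aged replicate 2 for spindle genes, and -0.09 and -0.34 for nucleotide supply.

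**Figure D5:**
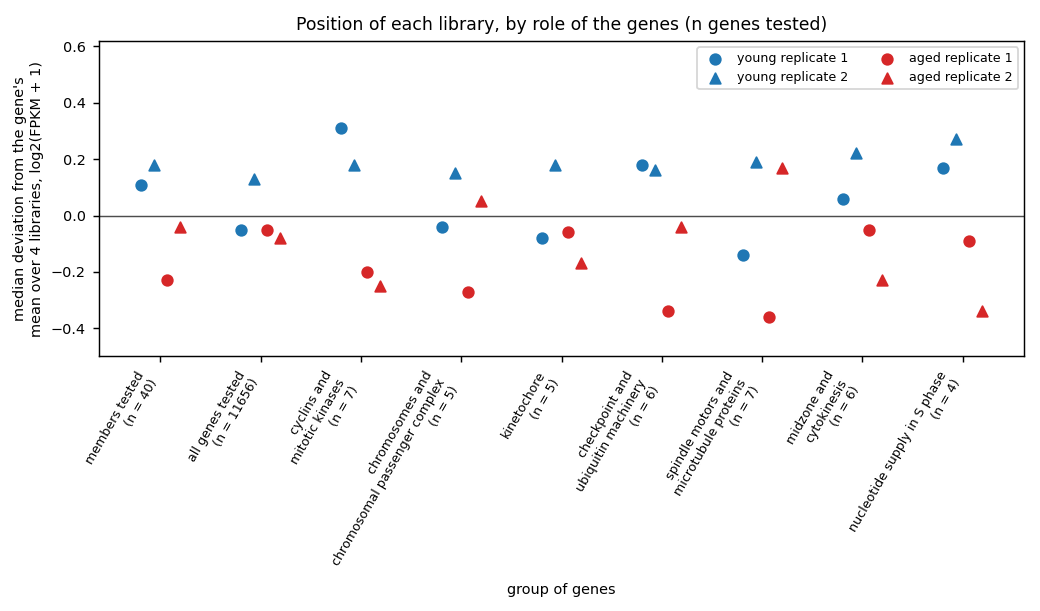
Median deviation of each library from each gene's mean over the 4 libraries, on the log2(FPKM + 1) scale, for the members tested, all genes tested and each role group (circles replicate 1, triangles replicate 2, young blue, aged red). Each aged point lies under each young point for cyclins and kinases (-0.20 and -0.25 against 0.31 and 0.18), and aged replicate 2 lies close to young replicate 2 for spindle genes (0.17 and 0.19).

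Other genes of the cycle, in lists that hold none of the 44, gave 0 calls by limma. Of 61 further mitosis genes tested, 42 (68.9%) were lower in aged cells, beside 59.5% of all genes tested, with a median of -0.23. In 22 (36.1%) each aged value was under each young value and in 7 (11.5%) the reverse, beside 26.2% and 11.8% of all genes. By limma, 2 were lower and 0 higher at an unadjusted p below 0.05, beside 4.87% and 1.76% of all genes. H2afz, the histone variant H2A.Z, was the most abundant, at 97.1 and 80.1 FPKM at 3 months and 59.6 and 55.8 FPKM at 15 months (-0.60, SE 0.21, limma adjusted p 0.740). Cks1b, a small partner of the mitotic kinase, was 5.40 and 5.89 against 3.22 and 3.04 FPKM, and Mis12, of the inner kinetochore, 4.50 and 6.92 against 4.37 and 2.39 FPKM. In each of the 3 the aged pair lay under the young pair.

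Of 23 further nucleotide supply genes, 18 (78.3%) were lower, beside 59.5% of all genes tested, with a median of -0.24. In 10 (43.5%) each aged value was under each young value and in 0 the reverse, beside 26.2% and 11.8% of all genes. By limma, 2 were lower and 0 higher at an unadjusted p below 0.05, beside 4.87% and 1.76% of all genes. Dck, deoxycytidine kinase of the salvage route, was 53.7 and 56.5 FPKM at 3 months and 26.7 and 36.1 FPKM at 15 months (-0.81, SE 0.23, limma adjusted p 0.740), and Mthfd2, of mitochondrial folate metabolism, was 14.7 and 12.7 against 6.45 and 9.29 FPKM. Nme1, a nucleoside diphosphate kinase and the most abundant, was 143 and 75.9 against 97.1 and 205 FPKM. Dck and Mthfd2 had separate ages, and the aged values of Nme1 lay apart from each other.

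The regulators of G1 and S phase and the cell cycle transcription factors lay close to all genes, with a median of -0.11. Of 31 tested, 19 (61.3%) were lower, beside 59.5% of all genes tested. In 8 (25.8%) each aged value was under each young value and in 2 (6.45%) the reverse, beside 26.2% and 11.8% of all genes. By limma, 0 had an unadjusted p below 0.05, beside 4.87% lower and 1.76% higher of all genes. E2f4, a repressive E2F factor of resting cells, was the most abundant, at 79.4 and 105 against 77.4 and 73.9 FPKM. Rbl1, the pocket protein p107, was 4.59 and 7.94 against 4.01 and 3.02 FPKM, and Dnmt1, the maintenance DNA methyltransferase, 10.4 and 10.7 against 8.50 and 5.97 FPKM. The anaphase-promoting complex also had a median of -0.11, with 12 of 16 (75%) lower, beside 59.5% of all genes. In 3 (18.8%) each aged value was under each young value and in 1 (6.25%) the reverse, beside 26.2% and 11.8% of all genes. By limma, 0 were lower and 1 higher at an unadjusted p below 0.05, beside 4.87% and 1.76% of all genes. That gene, Anapc2, its cullin subunit, was higher in both aged libraries, at 11.9 and 17.4 against 30.5 and 21.02 FPKM (0.77, SE 0.30, limma adjusted p 0.740), while Fzr1, an activator, was lower in both, at 5.71 and 8.98 against 5.31 and 4.89 FPKM. Anapc5, a scaffold subunit, was 107 FPKM in aged replicate 2 and 26.3 to 34.7 FPKM elsewhere.

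Markers of other cells of the nerve, which can also divide, were present, none of them at 0 in all 4 libraries. The 12 Schwann cell markers added up to 80.7 and 92.5 FPKM at 3 months and 95.6 and 75.2 FPKM at 15 months, with Pmp22 the highest at 27.9 to 51.6 FPKM. The 8 fibroblast markers added up to 43.5 and 209 against 97.3 and 72.0 FPKM, with Dcn at 9.73 to 42.8 FPKM. In young replicate 2 alone the fibroblast sum was above the sum of the 44 proliferation genes, 204 FPKM, and Col3a1 was 58.9 FPKM there. The endothelial sum of 7 markers was 24.9 and 20.0 against 10.3 and 13.7 FPKM, lower in both aged libraries, as the proliferation sum was, but Cldn5 alone gave 16.9 FPKM of young replicate 1. Without Cldn5 the sums overlapped, at 8.01 and 19.5 against 8.83 and 12.7 FPKM, and Pecam1 was 2.77 and 6.58 against 5.05 and 5.74 FPKM. The pericyte sum of 8 markers was higher in both, at 10.6 and 16.4 against 26.5 and 19.8 FPKM, where Notch3 gave 9.97 and Myh11 5.64 FPKM of aged replicate 1, and Acta2 was 5.18 to 8.80 FPKM.

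Among blood cells, 11 neutrophil markers added up to 45.5 and 47.8 against 50.3 and 59.0 FPKM, with Csf3r at 24.3 to 29.7 FPKM. The 9 markers of T and NK cells added up to 23.2 and 24.2 against 19.2 and 111 FPKM, with Cd3g alone at 97.8 FPKM in aged replicate 2. Without Cd3g the sums were 22.2 and 22.6 against 18.4 and 12.7 FPKM, lower in both aged libraries. The sum of 6 B cell markers was 8.99 and 10.4 against 31.1 and 9.23 FPKM, with Pax5 alone at 18.7 FPKM in aged replicate 1 and Cd79b at 2.84 to 11.1 FPKM, and that of 7 dendritic cell markers 57.1 and 70.6 against 47.3 and 65.3 FPKM, with Ccr7 at 16.2 to 29.8 FPKM. The part of these cells in the proliferation values was not tested.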

How the data were processed

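The submitters' processing notes name the build mm10 and the tools BWA 0.7.12, bcl2fastq and DESeq2, without their roles. Counting method, annotation and strand setting were not given in the sources used here. The deposited table holds FPKM calculated by the authors, and 0 of its columns were left unmatched. In it, a series of 12 read totals had been used in turn down the genes, so that 8.3% of the values of a column were divided by that library's own total. The totals were taken as found in an earlier examination of these data. With them undone, values up to 0.15 FPKM were ratios of whole numbers up to 12, within 1e-05, in 782 of 795 genes, against 69 of 795 as deposited. Each value was then divided by its own library's total. Which totals are the libraries' own rests on their order in that series. As a check, reads summed over 23059 genes with GENCODE exon lengths were 1.38 to 1.39 times the total assigned to each library, against 1.31 to 1.90, 1.30 to 1.52 and 1.20 to 1.51 times the totals 3, 6 and 9 places on. Member reads are the smallest whole numbers that fit, so they are lower limits.

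limma 3.58.1 (R 4.3.3) was fitted to log2(FPKM + 1) (empirical Bayes with a trend on intensity; two-sided; difference as aged minus young) over 11656 genes with a mean of at least 1 FPKM, with Benjamini-Hochberg adjustment over all of them and a threshold of 0.05. The fit was also run on simulated data with independent normal noise for each gene. Those data held no shift common to a library, so they cannot show how the fit handles one. The members, gene lists and rules were chosen with earlier results of these data known. By the rule for named genes, each role group gives its most abundant member and up to 3 members with the largest difference, separate ages and a mean of at least 5 FPKM in 1 age, and each further list up to 2 such genes and its most abundant one; other members singled out were chosen after their values were seen. Of the further lists, 150 symbols matched directly and 2 through RefSeq IDs. Exon overlap and shared 50-base stretches come from GENCODE M21, and promoter windows from RefSeq GRCm38.p6. Alternatives covered the scaling, pseudocount, filter, trend, replicate block and each library left out.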

Additional observations from a re-analysis of the deposited data

How the results depend on the processing

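limma called 0 members under each of the 13 alternatives, and 0 genes in all under 12 of them. Whether same-numbered libraries were prepared together is not stated. They did not deviate together (correlation over genes -0.00038), which with 2 libraries per age cannot decide it. With the numbers as a replicate block limma called 1 gene, no member, with 906 genes at an unadjusted p below 0.05, beside 773 in the main fit. The cause was not tested. The median of the members was -0.49 with the values as deposited, where that of all genes was -0.31, -0.36 with a pseudocount of 0.1, -0.11 with a pseudocount of 5, -0.38 with a mean of at least 5 FPKM, and -0.38 to -0.15 without single libraries. With median-of-ratios scaling the median of all genes moved from -0.09 to 0.01 and the member median lay -0.17 from it, with 80% of them lower beside 49.2% of all genes; 11 members had separate ages with that and with quantile scaling. With a mean of at least 5 FPKM, 14 members were left. Of these, 11 (78.6%) were lower and 5 (35.7%) had separate ages, beside 59.8% and 27.9% of all genes. At that minimum, 13, 12 and 9 genes were lower in the further lists of mitosis, G1/S and nucleotide supply genes. These lists also lost genes at that minimum, so the counts are not shares to set against the 59.8% of all genes. Without single libraries, 27 to 34 members (67.5% to 85%) were lower, beside 49.9% to 66.7% of all genes. The aged values lay below the young in 21 to 30 (52.5% to 75%), since fewer values are compared, beside 34.7% to 47.9% of all genes. Without single libraries, 7 to 13 of the 16 genes of the anaphase-promoting complex and 12 to 27 of the 31 G1/S genes were lower. The share of all genes lower was 49.9% to 66.7%, as above. The young over aged ratio of summed levels was 1.51 as deposited, 1.17 with median-of-ratios and 1.18 with quantile scaling. Of the member differences, 15 changed sign without some single library, with ranges of -0.30 to 0.11 for Ccnf, -0.20 to 0.39 for Aurka, -0.38 to 0.16 for Top2a, -0.28 to 0.26 for Birc5, -0.21 to 0.36 for Cenpe. The ranges were -0.62 to 0.11 for Nuf2, -0.53 to 0.88 for Bub1b, -0.60 to 0.08 for Ube2c, -0.49 to 0.31 for Kif2c, -0.45 to 0.11 for Kif4. They were -0.65 to 0.55 for Nusap1, -0.44 to 0.13 for Tpx2, -0.39 to 0.18 for Tacc3, -0.16 to 0.25 for Kif20a, -0.41 to 0.18 for Anln. By scaling, Bub1b was -0.13 and Kif20a -0.08 as deposited, and Birc5 0.06 and Nusap1 0.04 with median-of-ratios scaling. With a pseudocount of 5, Birc5 was 0.00 and Nusap1 0.01. At these levels 1 read in a gene of 2 kb is 0.0435 to 0.058 FPKM, and members with few reads are the least precise.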
